A study of Mus musculus with 60 samples.

Results

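The effect of a high-fat diet on gene expression in subcutaneous white adipose tissue (scWAT) was compared with its effect in visceral white adipose tissue (vWAT) of the same sedentary mice. Of the 60 libraries of the series, the 20 used here are the scWAT and the vWAT library of each of 10 sedentary C57BL/6JN mice, chosen by tissue, activity and the animal code in the sample titles. All were 12 weeks old. For 6 weeks, 5 of them (HFD) ate a diet with 60% of its energy as fat and 5 (chow) one with 10%, and all were fasted for 6 hours before the tissues were taken. Another 20 fat libraries, from 5 HFD and 5 chow mice with a running wheel for the last 3 weeks and a wash-out of 24 hours before collection, are set beside these at the end. Each library is 1 piece of bulk tissue, and the labels do not say which visceral pad was taken. In such tissue, fewer cells of a type and less RNA per cell cannot be told apart.

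White fat stores triglyceride, and its adipocytes make part of that fat from glucose through a chain of enzymes that insulin and carbohydrate induce through the factors SREBP-1c and ChREBP. When fat intake exceeds need, adipocytes swell, secrete more leptin, remodel the surrounding matrix and draw in macrophages. Visceral fat is known for the stronger macrophage infiltration, and subcutaneous fat for room to expand and for brown-like (beige) adipocytes.

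Total counts ran from 505336 to 720220 in the scWAT and from 580173 to 689060 in the vWAT libraries, so that 3 counts, the limit that a count of 0 allows, equal 4.17 to 5.94 counts per 1e+06 total counts (CPM) in scWAT and 4.35 to 5.17 CPM in vWAT. Such limits cover counting error only. Most depot markers followed the labels. Hoxc10 was read in all 10 scWAT libraries (3 to 17 reads) and had no read in the 10 vWAT libraries, and Wt1 (1 to 6 reads) and Tcf21 (1 to 9 reads) were read in all 10 vWAT libraries and in none from scWAT. Of the list of subcutaneous markers, Hoxc8 (9 to 39 reads in scWAT and 19 to 32 in vWAT), Hoxa5 (0 to 6 and 0 to 11) and Nr2f1 (0 to 6 in both) did not separate the depots, and Hoxc9 (3 to 12 and 0 to 8) overlapped. Of the visceral list, Nr2f2 (8 to 42 reads in scWAT and 11 to 34 in vWAT) did not separate them, and Gata6 (0 to 6 and 3 to 10) overlapped. Gata4 was read in only 2 of the 10 vWAT libraries. Some libraries held transcripts of other tissues. The scWAT libraries of chow replicates 2, 4 and 5 held 328 to 675 reads of a B cell list and 467 to 1163 of a lymph node stroma list, against 2 to 28 and 4 to 20 in the other 7 scWAT libraries. Heart genes had 649 to 730 reads in the vWAT libraries of chow replicates 1 to 3 and 8 to 34 in the other 7. The vWAT library of HFD replicate 5 held 239 reads of intestinal genes and 2191 of skeletal muscle genes, and skeletal muscle genes in scWAT had 328, 5053, 7652, 44367 and 644 reads in HFD replicates 1 to 5 and 19223, 122, 1918, 944 and 570 in chow replicates 1 to 5. A liver list, which includes Cyp2e1, had 1702 to 7311 reads in HFD vWAT (median 1951) and 2650 to 4104 in chow vWAT.

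The interaction asked, for each gene, whether the HFD effect in scWAT minus that in vWAT differed from 0, with each animal giving its own pair of depots. On the log2 scale a positive value means a higher HFD-to-chow ratio in scWAT. Each adjusted p value comes from the quasi-likelihood test of edgeR, corrected after Benjamini and Hochberg over all 7131 genes tested, and a gene is called below 0.05. The diet effect differed between the depots for 89 genes (1.25% of those tested), 63 with a positive (0.883%) and 26 with a negative value (0.365%), and 909 genes had an unadjusted p under 0.05. Without the animal in the model 21 genes were called, all 21 among the 89. The diet effect by itself was called for 559 genes in scWAT (7.84%), 317 higher (4.45%) and 242 lower (3.39%) in HFD, and for 261 in vWAT (3.66%), 130 higher (1.82%) and 131 lower (1.84%). Scaled to total counts alone these splits became 699 higher and 131 lower in scWAT and 327 higher and 74 lower in vWAT, where this scaling shifted the median of all genes by 0.19 in scWAT, by 0.20 in vWAT and by −0.02 for the interaction. Which depot had more calls depended on the fit. With each depot fitted alone, 314 of 6089 genes were called in scWAT and 482 of 6122 in vWAT. Without chow replicates 2, 4 and 5, the animals with lymph node reads, 181 were called in scWAT and 170 in vWAT.

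The 89 genes fall into a few patterns. Of the 63 positive ones, 41 were called higher with HFD in scWAT and not called in vWAT, 13 were called lower in vWAT and not called in scWAT, 2 (Mest and Lep) were called higher in both depots, and 7 in neither. Of the 26 negative ones, 8 were called lower in scWAT alone, 6 higher in vWAT alone, 1 (Elovl6) lower in both and 11 in neither. A call in one depot and none in the other is not itself the difference. The interaction is.

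**Figure D1:**
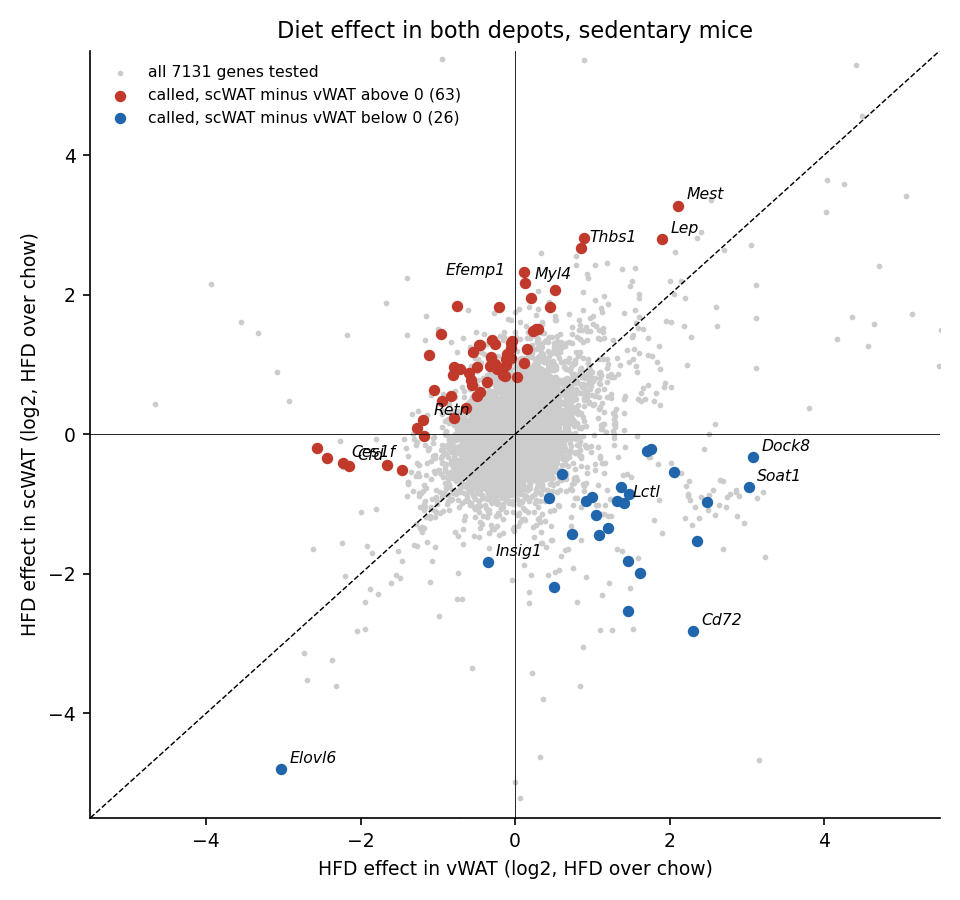
HFD effect in scWAT (y axis) against that in vWAT (x axis), as log2 HFD over chow in sedentary mice, for all genes tested in grey (10 lie beyond the axes), with the 63 called positive interactions in red and the 26 called negative ones in blue. Red points lie above the dashed line of equal effects, mostly at scWAT values above 0 and vWAT values near 0 or below, and blue points lie below it.

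The count depends on which animals are in it. It was 42, 34 and 40 without chow replicates 2, 4 and 5, the animals with lymph node reads, 50 and 33 without HFD replicates 1 and 5, 57 without HFD replicate 3, and 214 and 143 without chow replicates 1 and 3. Of the 41 named called genes, 23 kept their call whichever animal was left out. Those that lost it in at least 1 such fit were Lep, Mest, Cav1, Fn1, Thbs1, Cd34, Npr3, Car3, Cyp2e1, Aldh6a1 and Plin2. The same holds for Tmem37, Vav1, Blnk, Rassf2, Arhgap30, Fam49b and Gm42428. Without all 3 animals with lymph node reads, 11 of 8000 genes were called (0.137%), 6 of them among the 89: Efemp1, Lctl, Myl4, Elovl6, Insig1 and Selenbp1. This fit sets only chow replicates 1 and 3 against the 5 HFD mice. The vWAT libraries of these chow mice hold 649 and 730 heart reads, and the scWAT library of chow replicate 1 holds 19223 skeletal muscle reads. All 89 kept their direction in that fit, but 36 shrank by more than 1.5 times; the median interaction was 0.97 without and 1.35 with these animals for the positive genes, and −1.27 without and −2.18 with them for the negative ones. The library codes in the column names were cut here into blocks of 12 consecutive codes, which split the vWAT libraries partly by diet. Neither the labels nor the column names mark such blocks, and the vWAT codes run on without a gap. The cut was counted from the code of the vWAT library of HFD replicate 1, and another start would group the libraries otherwise. The vWAT libraries of chow replicates 1 to 3, which are the ones with heart reads, form 1 block without an HFD library. The vWAT library of HFD replicate 5 stands in another by itself among the sedentary mice. In the fit without the animals with lymph node reads, chow and HFD vWAT libraries therefore share no block. With these blocks as a term 25 genes were called, 9 of them among the 89, and the 89 again kept their direction. The HFD effect in vWAT was then called for 9 genes, 3 higher and 6 lower, in place of 261.

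The most common pattern among the 89, with 41 genes, was a rise with HFD in scWAT and no call in vWAT, and matrix, caveola and membrane genes are among its members. Efemp1 encodes fibulin-3, a secreted glycoprotein of elastic and basement-membrane matrix (ENSMUSG00000020467, mm10 chromosome 11, 28853204 to 28926743). In scWAT it stood at 189, 226, 141, 136 and 149.7 CPM in HFD replicates 1 to 5, against 52.5, 21.8, 31.9, 26.0 and 28.5 CPM in chow replicates 1 to 5. In vWAT it stood at 317, 240.3, 257, 231 and 221 CPM in HFD and 222, 223, 152, 228 and 187 CPM in chow mice. Every HFD scWAT library was above every chow scWAT library, whereas the vWAT groups overlapped. The HFD effect was 2.17 (SE 0.21, adjusted p = 2.86e-07) in scWAT and 0.13 (SE 0.19, adjusted p = 0.825) in vWAT, and the interaction was 2.07 (SE 0.26, adjusted p = 0.000309). Of the 41 named called genes, Efemp1 was the only one to keep its call in every alternative in which it was tested, among them the fit without the animals with lymph node reads (1.55).

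The promoter of Efemp1 is shown because the gene had the lowest adjusted p of the 89. The window, from RefSeq on GRCm38.p6, runs from 250 bases before to 50 after the start of transcription, and the capitals mark a match to the C/EBP-type motif TTGCNNAA, which was searched on both strands and here lies on the strand opposite to the one printed; C/EBP factors drive adipocyte genes.
Efemp1 promoter, chr11:28852955-28853254, plus strand: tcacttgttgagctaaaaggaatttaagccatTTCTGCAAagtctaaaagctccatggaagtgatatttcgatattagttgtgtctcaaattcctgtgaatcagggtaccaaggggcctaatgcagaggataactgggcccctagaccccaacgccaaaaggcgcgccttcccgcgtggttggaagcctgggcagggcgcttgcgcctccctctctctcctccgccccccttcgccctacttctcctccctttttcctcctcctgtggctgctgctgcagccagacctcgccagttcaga
The motif was found in the promoters of 9 of the 47 positive genes with a RefSeq window (19.1%) and of 1 of the 22 negative ones, against 12.2% of all 27025 genes with a window.

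Caveolae are the pits of the adipocyte surface that flatten as the cell swells, and 2 of 7 tested caveola genes were called positive, with all 7 above 0 (median 0.78, against 0.00 over all genes tested). Cavin3, an adaptor of the caveolar coat (ENSMUSG00000037060, mm10 chromosome 7, 105480083 to 105482300), stood in scWAT at 169.9, 226, 193, 254 and 351 CPM in HFD and 102, 25.7, 58.3, 45.9 and 31.8 CPM in chow mice. Its vWAT libraries had 342, 294, 354, 311 and 305 CPM in HFD and 303, 203, 282, 217 and 202 CPM in chow mice. The scWAT groups did not overlap, and all vWAT libraries of both diets lay within or above the range of the HFD scWAT libraries. The interaction was 1.83 (SE 0.28, adjusted p = 0.00222). Cav1, the structural protein of the pit, averaged 2703 ± 608 CPM in HFD and 1132 ± 400.4 CPM in chow scWAT, and 3463 ± 282 and 2779 ± 185 CPM in HFD and chow vWAT (SD, n = 5 each), with an interaction of 0.99 (SE 0.24, adjusted p = 0.0450). In scWAT 4 of the 7 caveola genes were called higher with HFD, and in vWAT none. Without the animals with lymph node reads the list median was 0.28.

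Among matrix genes, fibronectin (Fn1) had an interaction of 1.56 (SE 0.32, adjusted p = 0.0179), thrombospondin 1 (Thbs1, which can activate latent TGF-beta) one of 1.75 (SE 0.42, adjusted p = 0.0476), and dermatopontin (Dpt, a binding partner of collagen and decorin) one of 1.32 (SE 0.26, adjusted p = 0.0121). Fn1 stood at 151, 171, 45.9, 79.2 and 134 CPM in HFD and 38.6, 45.5, 19.4, 7.64 and 11.7 CPM in chow scWAT. In vWAT Fn1 stood at 191 to 303 CPM in HFD and 114 to 221 CPM in chow mice, so that even the lowest HFD vWAT library held more than the highest HFD scWAT library. Dpt ran the other way between depots, at 382 to 878 CPM in HFD and 193 to 414 CPM in chow scWAT, against 134 to 205 and 149 to 239 CPM in HFD and chow vWAT. Over the lists, 2 of 23 tested genes for matrix proteoglycans and their processing were called positive (median 0.50), 1 of 13 fibulin and elastic fibre genes (0.75) and none of 15 collagens (0.19). Without the animals with lymph node reads these medians were 0.05, 0.12 and −0.35. The collagen Col1a1 had 236 to 506 CPM in HFD and 71.9 to 304 CPM in chow scWAT and an interaction of 0.06 (SE 0.63, adjusted p = 0.990), and −1.42 in the fit without those animals.

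Myl4 (ENSMUSG00000061086, mm10 chromosome 11, 104550663 to 104595753) encodes a myosin light chain best known from embryonic muscle and the heart atrium, and it is also on the list of heart genes. Myl4 stood in scWAT at 61.5, 39.6, 55.4, 45.3 and 68.6 CPM in HFD and 13.9, 9.89, 9.72, 7.64 and 5.03 CPM in chow mice, which did not overlap. In vWAT the values were 32.9, 32.3, 22.6, 27.6 and 22.4 CPM in HFD and 36.2, 26.0, 24.8, 14.0 and 9.57 CPM in chow mice, with the higher chow values in replicates 1 to 3, the libraries with heart reads, whose part in these values was not tested. The interaction was 2.20 (SE 0.37, adjusted p = 0.00384), 2.31 without the animals with lymph node reads, and 2.11 in trained mice. Without those animals, every chow vWAT library that is left holds heart reads. Among trained mice, the vWAT libraries of chow replicates 1 and 2 hold 711 and 885 heart reads and lie in the same block of library codes. These values rest on 3 to 44 reads per library.

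Others in the group cover cell structure, serine synthesis and progenitors. Ahnak, a very large scaffold protein beneath the plasma membrane, stood at 485, 536, 784, 568 and 633 CPM in HFD and 230.1, 190.0, 180.5, 222 and 245 CPM in chow scWAT, without overlap, against 451 to 589 and 350.5 to 695 CPM in HFD and chow vWAT (interaction 1.32, SE 0.22, adjusted p = 0.00386). Phgdh, the first enzyme of serine synthesis, averaged 211 ± 45.0 CPM in HFD and 95.4 ± 24.5 CPM in chow scWAT (interaction 1.17, SE 0.22, adjusted p = 0.00795). Slc5a3, the sodium-coupled importer of myo-inositol, averaged 116 ± 18.8 and 41.3 ± 12.8 CPM there (interaction 1.76, SE 0.33, adjusted p = 0.00815). Atp6v0e2, a subunit of the proton pump of lysosomes, had an interaction of 1.77 (SE 0.34, adjusted p = 0.00952). Cd34, a surface marker of adipose progenitors and vessels, had one of 1.29 (SE 0.28, adjusted p = 0.0197), and it was the called member among 11 tested progenitor genes (median 0.53). Npr3, the receptor that clears natriuretic peptides, which otherwise stimulate lipolysis, stood at 389.8 to 576 CPM in HFD and 98.9 to 263 CPM in chow scWAT (interaction 1.35, SE 0.32, adjusted p = 0.0476).

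Leptin and Mest were raised in both depots, with a higher HFD-to-chow ratio in scWAT, where their levels in chow mice were lower. Lep (ENSMUSG00000059201, mm10 chromosome 6, 29060220 to 29073877) encodes the satiety hormone whose level follows fat cell size. Lep stood in scWAT at 2010.1, 1458, 1029, 1313 and 2832 CPM in HFD and 392.3, 133, 282, 133 and 109 CPM in chow mice. In vWAT it stood at 3019, 1537, 2025, 2424 and 3398 CPM in HFD and 752, 405, 676, 595 and 438 CPM in chow mice. The diet groups did not overlap in either depot. Its HFD effect was 2.80 (SE 0.38, adjusted p = 0.000138) in scWAT and 1.90 (SE 0.36, adjusted p = 0.00625) in vWAT, and the interaction 1.04 (SE 0.26, adjusted p = 0.0448) was lost in 7 of the 10 fits that left out 1 animal (adjusted p up to 0.173).

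Mest, an imprinted gene that marks expanding adipocytes, averaged 265 ± 98.0 CPM in HFD and 23.3 ± 16.2 CPM in chow scWAT, and 453 ± 123 CPM in HFD and 90.9 ± 38.0 CPM in chow vWAT. Its interaction was 1.20 (SE 0.27, adjusted p = 0.0254), and in trained mice it was 1.75 (adjusted p = 0.0216). The call of Mest in sedentary mice was not kept in every fit that left out 1 animal. Sfrp5, a secreted Wnt inhibitor of the same list of fat expansion genes, was called higher in both depots, at 2.90 (SE 0.44, adjusted p = 0.000220) in scWAT and 2.41 (SE 0.39, adjusted p = 0.00112) in vWAT, and its interaction was not called (0.64, SE 0.44, adjusted p = 0.608). Nnmt, nicotinamide N-methyltransferase, was called higher in scWAT (1.20, SE 0.17, adjusted p = 4.09e-05), and its interaction did not pass (0.77, SE 0.20, adjusted p = 0.0633). Of the 7 genes of this list, 6 were called higher in scWAT and 2 in vWAT, and 2 had a called positive interaction (median 0.84). Without the animals with lymph node reads no interaction of the list was called (median 0.48).

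The Lep promoter is shown because Lep has a match to the same motif, in capitals, beginning 55 bases before the start of transcription, against 218 bases before it in Efemp1. A match is a description of the letters only.
Lep promoter, chr6:29059971-29060270, plus strand: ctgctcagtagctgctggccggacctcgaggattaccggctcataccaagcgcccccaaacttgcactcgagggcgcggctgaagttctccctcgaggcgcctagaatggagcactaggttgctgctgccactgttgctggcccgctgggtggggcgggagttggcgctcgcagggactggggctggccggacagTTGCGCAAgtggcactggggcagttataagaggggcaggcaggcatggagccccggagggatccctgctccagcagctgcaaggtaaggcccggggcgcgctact

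Another 13 genes were called lower with HFD in vWAT and not called in scWAT, and products of mature adipocytes are among them. Retn (ENSMUSG00000012705, mm10 chromosome 8, 3655770 to 3660110) encodes resistin, an adipocyte hormone of mice. Retn stood in vWAT at 2553, 4175, 3337, 2637 and 1099 CPM in HFD and 6260.2, 5374, 5941, 5594 and 4146 CPM in chow mice, overlapping by 1 HFD library. Its scWAT libraries had 2901, 3474, 3077, 2558 and 2655 CPM in HFD and 2792, 1706, 2667, 1889.6 and 1913 CPM in chow mice, also overlapping. The lowest HFD vWAT value was that of replicate 5. The interaction was 1.55 (SE 0.26, adjusted p = 0.00386), and 1.35 without the animals with lymph node reads, where it was not called (adjusted p = 0.292).

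Cfd (ENSMUSG00000061780, mm10 chromosome 10, 79890853 to 79892655) encodes adipsin, the protease that starts the alternative complement pathway and one of the most abundant adipocyte messages. Cfd stood in vWAT at 1537, 4396, 2582, 1724 and 552 CPM in HFD and 5628, 13835, 5584, 7826 and 9241 CPM in chow mice, without overlap. In scWAT the values were 8833, 10593, 10261, 3594 and 2433 CPM in HFD and 8863, 9429, 6917, 6910.1 and 10758 CPM in chow mice, with low values in HFD replicates 4 and 5. The HFD effect was −2.15 (SE 0.47, adjusted p = 0.0159) in vWAT and −0.45 (SE 0.45, adjusted p = 0.618) in scWAT, and the interaction 1.72 (SE 0.28, adjusted p = 0.00383). With Lep, these made 3 of 8 tested adipocyte hormones called positive (median 0.94), and without the animals with lymph node reads none was called (median 0.48). Adiponectin (Adipoq), an abundant hormone of mature adipocytes, was not called, at 5897 ± 1266 CPM in HFD and 4089 ± 1056 CPM in chow scWAT, 6063 ± 985 CPM in HFD and 7338 ± 463 CPM in chow vWAT, and an interaction of 0.85 (SE 0.24, adjusted p = 0.0885).

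Ces1f (ENSMUSG00000031725, mm10 chromosome 8, 93256236 to 93279747), a carboxylesterase of a family that hydrolyses triglyceride and other esters, stood in vWAT at 20.9, 32.3, 45.2, 23.2 and 13.5 CPM in HFD and 65.5, 159.5, 111, 101 and 116 CPM in chow mice, and every HFD library was below every chow library. In scWAT it stood at 186, 136, 187, 50.1 and 68.6 CPM in HFD and 145, 137, 131, 115 and 204 CPM in chow mice, which overlapped. The interaction was 1.75 (SE 0.31, adjusted p = 0.00643). Reads of the Ces1 family are divided among near-identical members by estimation, which adds an uncertainty to this value. Fmo1, a flavin monooxygenase that oxidises drugs and other amines, averaged 74.6 ± 15.2 CPM in HFD and 156 ± 25.7 CPM in chow vWAT, and 164 ± 69.7 CPM in HFD and 132 ± 24.2 CPM in chow scWAT (interaction 1.31, SE 0.24, adjusted p = 0.00643). Gstt1, a glutathione transferase, had an interaction of 1.46 (SE 0.28, adjusted p = 0.00952), Cyp2e1, a cytochrome P450 for ethanol and ketones, one of 1.35 (SE 0.31, adjusted p = 0.0316), and Aldh6a1, a mitochondrial enzyme at the end of valine breakdown, one of 0.99 (SE 0.24, adjusted p = 0.0395). Cyp2e1 is also on the liver list, whose summed reads in vWAT, Cyp2e1 included, were 1702 to 7311 in HFD and 2650 to 4104 in chow mice. Of the 14 tested genes of that list only 2 had an interaction above 0 (median −3.10), so that Cyp2e1 ran against most of its list.

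Klhl2, an adaptor of a ubiquitin ligase, had an interaction of 1.60 (SE 0.29, adjusted p = 0.00678), at 43.5 to 58.1 CPM in HFD and 56.9 to 105 CPM in chow vWAT. The symbol Olfr907 belongs to an olfactory receptor gene, and reads assigned to it stood in vWAT at 2.99, 9.68, 4.52, 2.90 and 2.99 CPM in HFD and 24.1, 29.3, 14.6, 18.7 and 35.1 CPM in chow mice, against 8.09 to 28.3 and 7.64 to 28.5 CPM in HFD and chow scWAT (interaction 2.37, SE 0.46, adjusted p = 0.00952). Car3, carbonic anhydrase 3, an abundant adipocyte enzyme, was called for the interaction (1.12, SE 0.26, adjusted p = 0.0346) but in neither depot alone. Of 16 tested genes for the breakdown of branched-chain amino acids, 6 were called lower in vWAT and none in scWAT, and 1, Aldh6a1, had a called interaction (median 0.37). Without the animals with lymph node reads none was called (median 0.065).

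The marker list for adipocytes as a whole moved in the same direction. All 8 of its genes had a positive interaction (median 0.75), 2 of them called (Cfd and Car3), and without the animals with lymph node reads the median was 0.50. Its summed reads in scWAT were 33806 to 81204 in HFD and 25806 to 51586 in chow mice, and in vWAT 35529 to 56619 in HFD and 48242 to 62146 in chow mice. A large part of these sums is Car3, itself a called gene. In replicate 1, for example, Car3 made up 60755 of 105506 CPM in HFD and 38768 of 77531 CPM in chow scWAT. The part of the adipocyte share in the positive interactions was not tested.

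**Figure D2:**
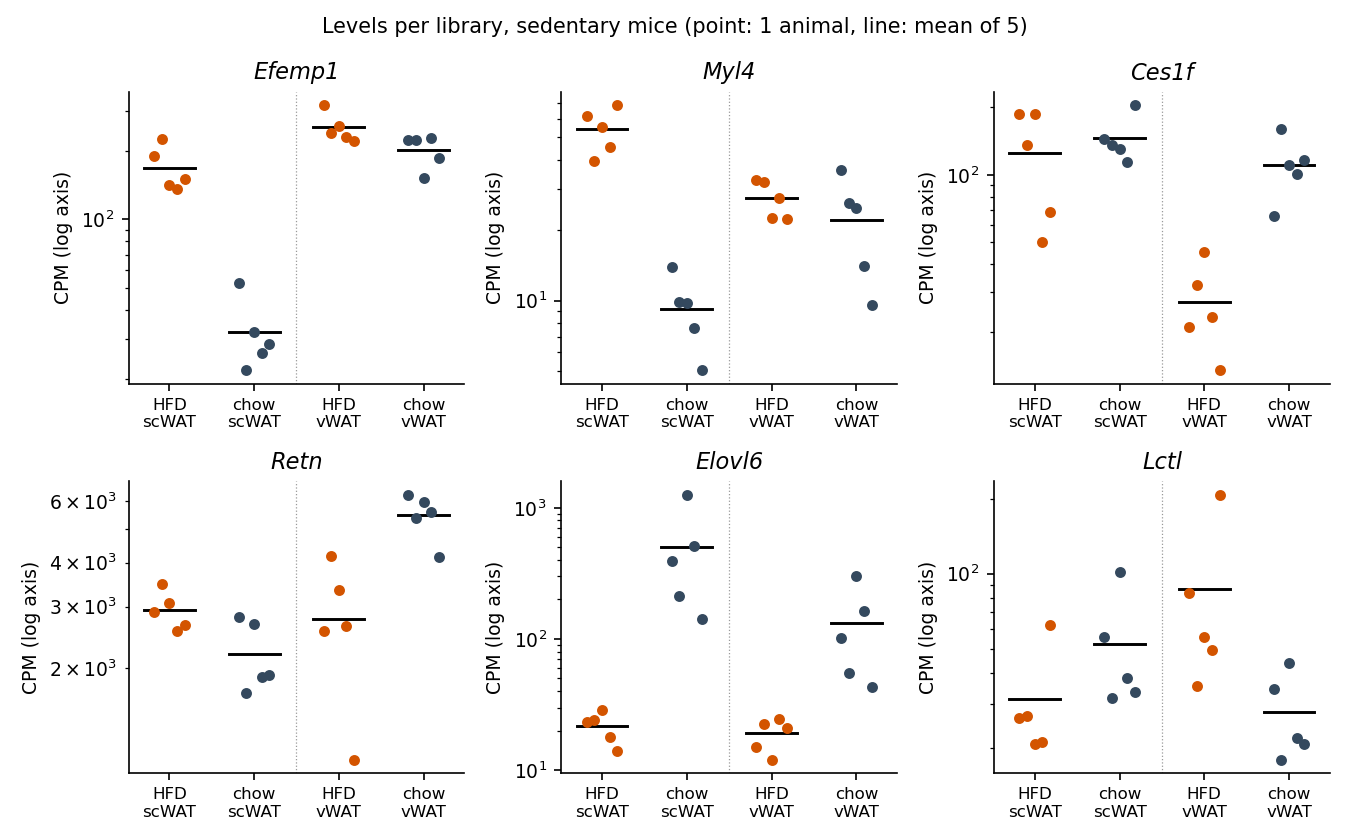
CPM per library on log axes for 6 called genes, with HFD (orange) left of chow (dark blue) in scWAT and then in vWAT; each point is 1 animal and each line the mean of 5. Efemp1 and Myl4 separate the diets in scWAT, Ces1f in vWAT, Retn by all but 1 library in vWAT, Elovl6 in both depots, and Lctl in neither.

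Among the negative genes, Elovl6 and Insig1 belong to fat and sterol synthesis. Elovl6 (ENSMUSG00000041220, mm10 chromosome 3, 129532355 to 129638495), the elongase that turns palmitate into stearate and a target of SREBP-1c, stood in scWAT at 23.4, 24.0, 28.5, 17.8 and 14.0 CPM in HFD and 395, 214, 1262, 512 and 141 CPM in chow mice. Its vWAT libraries had 14.9, 22.6, 12.0, 24.7 and 20.9 CPM in HFD and 102, 55.3, 304, 162 and 43.0 CPM in chow mice. In HFD mice the levels of the depots overlapped, and the diet groups did not overlap in either. In chow mice, the scWAT library of each animal held more than its vWAT library. The HFD effect was −4.81 (SE 0.70, adjusted p = 0.000503) in scWAT and −3.03 (SE 0.70, adjusted p = 0.0226) in vWAT, with an interaction of −1.68 (SE 0.29, adjusted p = 0.00446) that was also called without the animals with lymph node reads (−1.84).

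Insig1, the membrane protein that holds SREBP in the endoplasmic reticulum and is itself induced by SREBP (ENSMUSG00000045294, mm10 chromosome 5, 28071363 to 28078662), stood in scWAT at 45.4, 48.1, 33.3, 29.1 and 70.2 CPM in HFD and 137, 73.2, 254, 113 and 101 CPM in chow mice, without overlap. In vWAT the values were 52.3, 83.9, 39.1, 53.7 and 74.8 CPM in HFD and 72.4, 42.3, 97.8, 73.3 and 47.8 CPM in chow mice, which overlapped. The interaction was −1.40 (SE 0.25, adjusted p = 0.00643). Insig1 was called lower in scWAT (−1.84, SE 0.34, adjusted p = 0.00236) and not in vWAT (−0.36, SE 0.34, adjusted p = 0.693).

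Of 17 tested fatty acid synthesis genes 11 were called lower in scWAT and 12 in vWAT, and Elovl6 alone had a called interaction; the median interaction was −0.34, with 2 of 17 above 0, and −0.55 without the animals with lymph node reads. Fasn, fatty acid synthase, was called lower in both depots, at −3.23 in scWAT and −2.37 in vWAT, with an interaction of −0.88 (SE 0.31, adjusted p = 0.213). Acaca, which makes malonyl-CoA, was at −3.13 in scWAT and −2.74 in vWAT (interaction −0.29, SE 0.24, adjusted p = 0.687). Scd1, which desaturates stearate to oleate, was at −1.59 in scWAT and −1.31 in vWAT (interaction −0.22, SE 0.26, adjusted p = 0.800).

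Plin2, the perilipin that coats lipid droplets in many cell types including macrophages, stood in scWAT at 445, 464, 364, 438 and 739 CPM in HFD and 483, 524, 964, 685 and 447 CPM in chow mice. In vWAT it stood at 702, 391.9, 468, 508 and 1353 CPM in HFD and 355, 316, 622, 396 and 244 CPM in chow mice. The diet groups overlapped in both depots, and the highest HFD value in each depot was that of replicate 5. The interaction, which compares depots within animals, was −1.05 (SE 0.24, adjusted p = 0.0240). It was 1 of 15 tested genes of lipolysis and the lipid droplet that were called, and 13 of the 15 lay above 0 (median 0.27), with Plin2 below; without the animals with lymph node reads the list median was −0.058.

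The promoters of Insig1 and Plin2 are shown because both hold, in capitals, the E-box CACGTG, a palindrome that many factors of the basic helix-loop-helix kind can bind.
Insig1 promoter, chr5:28071162-28071461, plus strand: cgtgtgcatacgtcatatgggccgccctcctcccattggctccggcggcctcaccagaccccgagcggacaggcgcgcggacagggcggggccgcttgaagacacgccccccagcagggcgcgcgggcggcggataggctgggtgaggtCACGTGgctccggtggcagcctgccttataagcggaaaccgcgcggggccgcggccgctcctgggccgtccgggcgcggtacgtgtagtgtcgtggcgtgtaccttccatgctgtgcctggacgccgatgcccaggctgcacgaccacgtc
Plin2 promoter, chr4:86670010-86670309, minus strand: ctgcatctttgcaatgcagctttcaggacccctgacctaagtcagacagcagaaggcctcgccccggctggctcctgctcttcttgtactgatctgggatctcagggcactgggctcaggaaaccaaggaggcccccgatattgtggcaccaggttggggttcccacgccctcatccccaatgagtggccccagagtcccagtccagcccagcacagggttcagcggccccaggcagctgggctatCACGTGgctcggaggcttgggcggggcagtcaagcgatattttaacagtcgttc
The E-box stood in the windows of 4 of 22 negative genes (18.2%: Gk, Insig1, Plin2 and Sycp3) and of 2 of 47 positive ones (4.26%), against 8.09% of all genes with a window.

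Lctl, a membrane protein related to lactase and klotho, shows what the comparison within animals adds (ENSMUSG00000032401, mm10 chromosome 9, 64117147 to 64138118). Its vWAT libraries had 83.7, 35.5, 55.7, 49.3 and 208 CPM in HFD and 34.5, 17.9, 43.8, 21.8 and 20.7 CPM in chow mice. Its scWAT libraries had 26.4, 26.9, 20.6, 21.0 and 62.4 CPM in HFD and 55.6, 31.7, 101, 38.2 and 33.5 CPM in chow mice. The diet groups overlapped in both depots and neither diet effect was called. HFD replicate 5 and chow replicate 3 were the highest of their diet in both depots. Within each of the 5 HFD mice scWAT held less than vWAT, and within each of the 5 chow mice it held more. The interaction was −2.22 (SE 0.31, adjusted p = 0.000474), not called without the animal in the model (adjusted p = 0.198), and −2.36 without the animals with lymph node reads.

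Genes that leukocytes express are among the other negative genes, and their values are given here beside lymph node reads and macrophage markers. Soat1, which esterifies cholesterol for storage and is high in macrophages (ENSMUSG00000026600, mm10 chromosome 1, 156424525 to 156474331), stood in vWAT at 34.4, 14.5, 15.1, 16.0 and 76.2 CPM in HFD and 1.72, 1.63, 2.92, 6.24 and 3.19 CPM in chow mice. In scWAT the values were 7.33, 2.83, 1.58, 4.85 and 17.2 CPM in HFD and 6.18, 23.7, 2.78, 15.3 and 5.03 CPM in chow mice. All vWAT libraries of HFD mice were above all of chow mice, and the higher chow scWAT values were in replicates 2 and 4. Its HFD effect was 3.03 (SE 0.64, adjusted p = 0.00861) in vWAT, with an interaction of −3.77 (SE 0.62, adjusted p = 0.00383); without the animals with lymph node reads the interaction was −3.04, not called (adjusted p = 0.426).

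Dock8, an activator of the small GTPase Cdc42 in leukocytes, stood in vWAT at 38.8, 24.2, 18.1, 33.4 and 32.9 CPM in HFD and 1.72, 6.51, 1.46, 0 and 4.78 CPM in chow mice, again without overlap. In scWAT it stood at 5.86, 15.6, 7.92, 16.2 and 26.5 CPM in HFD and 4.63, 31.7, 5.55, 29.0 and 11.7 CPM in chow mice. The interaction was −3.44 (SE 0.65, adjusted p = 0.00815), and −2.67 without those animals (adjusted p = 0.549). Tmem37, annotated as a membrane protein related to calcium channel subunits, stood at 27.4 to 76.2 CPM in HFD and 4.88 to 23.4 CPM in chow vWAT, and at 12.9 to 23.4 and 12.5 to 21.8 CPM in HFD and chow scWAT (interaction −1.93, SE 0.43, adjusted p = 0.0234). Its interaction was −1.39 without those animals. Aif1, the macrophage protein IBA1, was called higher in vWAT (1.32, SE 0.38, adjusted p = 0.0488), with an interaction of −2.13 (SE 0.39, adjusted p = 0.00678), and −1.24 without those animals (adjusted p = 0.612). Low chow values of Soat1 and Dock8 in vWAT, at 0 to 6.51 CPM, are near or below the limit that a count of 0 allows.

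In scWAT the highest values of Vav1, Blnk and Cd72 were those of the 3 chow libraries with lymph node reads. Vav1, a signalling protein of all blood cells, stood in scWAT at 4.40, 5.66, 7.92, 4.85 and 18.7 CPM in HFD and 1.54, 53.4, 2.78, 44.3 and 33.5 CPM in chow mice. Its vWAT range was 7.47 to 35.9 CPM in HFD and 1.59 to 12.5 CPM in chow mice. The vWAT groups overlapped. Its interaction of −3.17 (SE 0.65, adjusted p = 0.0135) was −0.24 without these animals (adjusted p = 0.981). Blnk, the B cell linker, stood in scWAT at 4.40, 4.24, 6.33, 11.3 and 17.2 CPM in HFD and 3.09, 51.5, 2.78, 39.7 and 20.1 CPM in chow mice. In vWAT Blnk stood at 35.9, 12.9, 15.1, 27.6 and 71.8 CPM in HFD and 6.89, 3.26, 5.84, 6.24 and 4.78 CPM in chow mice. The vWAT groups did not overlap, while in scWAT the chow values of replicates 2, 4 and 5 were above all others. The HFD effect was −1.53 (SE 0.67, adjusted p = 0.182) in scWAT and 2.35 (SE 0.70, adjusted p = 0.0690) in vWAT, and the interaction of −3.69 (SE 0.67, adjusted p = 0.00826) became −0.79 without the animals with lymph node reads.

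Cd72, a B cell and macrophage receptor, had the most negative value of all called genes, −4.91 (SE 0.67, adjusted p = 0.000474), and −2.21 without those animals (adjusted p = 0.613). Its HFD effect was −2.82 (SE 0.83, adjusted p = 0.0460) in scWAT and 2.30 (SE 0.98, adjusted p = 0.242) in vWAT. Arhgap30 had −3.36 (SE 0.68, adjusted p = 0.0161) and −1.28, Fam49b −1.83 (SE 0.40, adjusted p = 0.0197) and −1.26, H2-Q7, a class I gene with near-identical relatives that make its reads uncertain, −2.09 (SE 0.42, adjusted p = 0.0123) and −1.003, and the long noncoding RNA gene Gm42428 −2.42 (SE 0.50, adjusted p = 0.0161) and −1.34. Rassf2, a Ras association domain protein, had −2.65 (SE 0.55, adjusted p = 0.0144) and −2.14 in the same order, and was called lower with HFD in scWAT (−2.20, SE 0.39, adjusted p = 0.000549). All kept their negative sign without those animals, and none was called.

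Over the lists, the macrophage markers had 1 of 15 tested genes called for the interaction (Aif1), with a median of −0.20, and 0.13 without the animals with lymph node reads. In vWAT 7 of the 15 were called higher with HFD, and in scWAT 1. Their summed reads were 1110 to 5611 in HFD and 624 to 872 in chow vWAT, and 497 to 1314 in HFD and 326 to 965 in chow scWAT, with the 5611 in HFD replicate 5. The part of macrophage content in the interactions was not tested. None of 6 tested MHC class II genes was called for the interaction, all 6 being below 0 (median −1.12, and −0.27 without the animals with lymph node reads). H2-Ab1 of this list stood at 432 to 803 CPM in HFD and 222 to 327 CPM in chow vWAT (interaction −0.98, SE 0.30, adjusted p = 0.127). The chemokine Ccl2, which recruits monocytes, was called higher with HFD in both depots, at 2.21 (SE 0.63, adjusted p = 0.0375) in scWAT and 2.15 (SE 0.50, adjusted p = 0.0213) in vWAT, with an interaction of 0.10 (SE 0.72, adjusted p = 0.982). No member of the B cell or lymph node stroma lists passed the filter on low counts, and Blnk and Cd72 are on neither list.

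**Figure D3:**
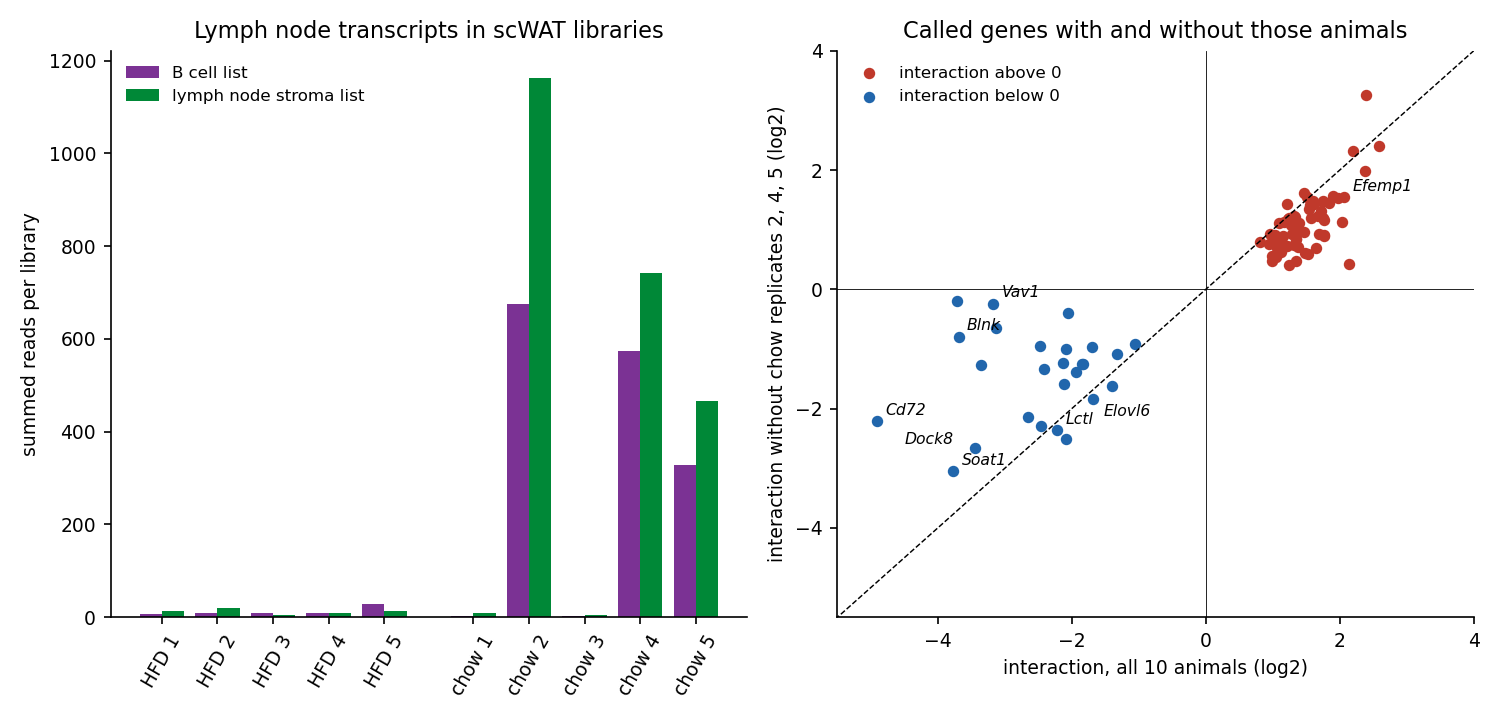
Left, summed reads of the B cell and lymph node stroma lists in each scWAT library of HFD and chow sedentary mice. Right, interaction of the called genes without chow replicates 2, 4 and 5 (y axis) against that in all 10 animals (x axis), both as log2 values. Chow libraries 2, 4 and 5 hold 328 to 675 B cell reads and the others at most 28, and Vav1 and Blnk lie near 0 without them, at −0.24 and −0.79, while Lctl and Elovl6 lie close to the dashed line of equal values.

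Set the other way, the interaction compares the depots on each diet. Of the 63 positive genes, 58 were lower in scWAT than in vWAT in chow mice, with a median log2 difference between depots of 0.36 in HFD and −1.06 in chow mice. Of the 26 negative genes, all 26 were higher in scWAT than in vWAT in chow mice, with medians of −0.91 in HFD and 1.46 in chow mice. The absolute difference between depots was smaller in HFD than in chow mice for 47 of the 63 and 20 of the 26. These values share their libraries with the interaction and lean this way in general: among all genes tested, 68.0% of those with a positive interaction were lower in scWAT in chow mice and 76.4% of those with a negative one were higher there. The depot difference was called in HFD mice for 24 and in chow mice for 47 of the 63 positive genes, and in HFD mice for 9 and in chow mice for 21 of the 26 negative ones, against 5.83% of all genes tested in HFD and 10.8% in chow mice. Efemp1 differed between depots by −0.52 in HFD (adjusted p = 0.0722) and by −2.59 in chow mice (adjusted p = 7.04e-09). Cfd went the other way, at 1.87 in HFD (adjusted p = 4.37e-06) and 0.15 in chow mice (adjusted p = 0.684).

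**Figure D4:**
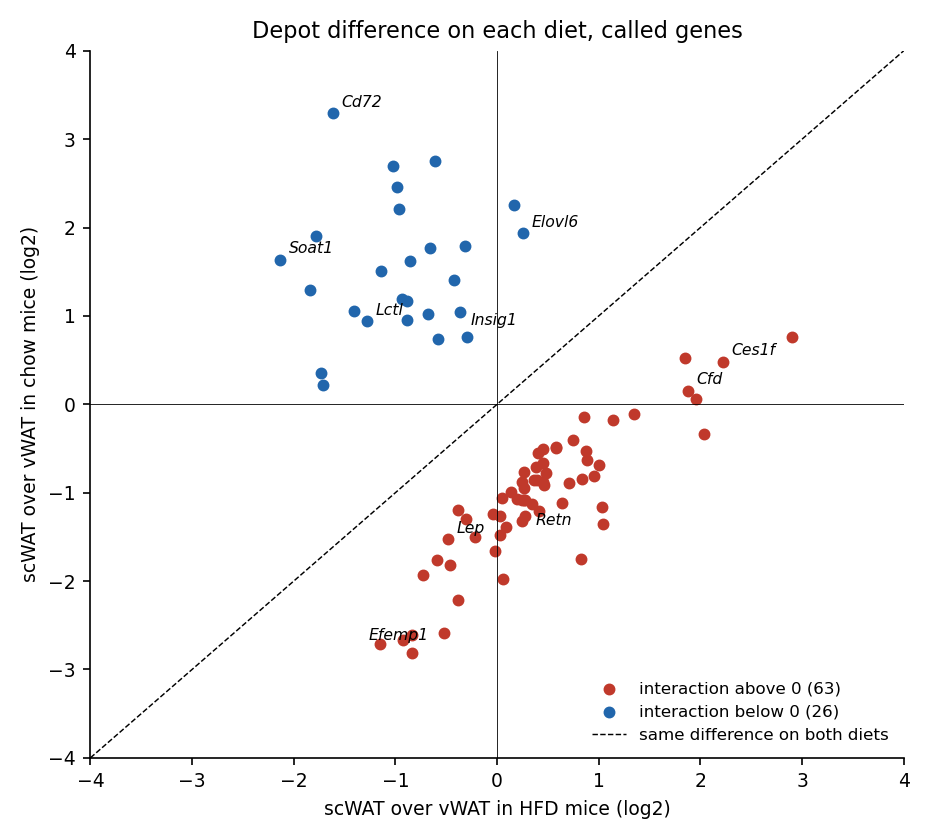
Log2 difference between scWAT and vWAT in chow mice (y axis) against that in HFD mice (x axis) for the called genes, red for positive and blue for negative interactions. Of the 63 red points 58 lie below 0 on the chow axis and all 26 blue points lie above it, and most red points lie nearer to 0 on the HFD axis.

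The diet effect on Ucp1 could not be compared between the depots. Ucp1, the uncoupling protein that makes heat, stood in scWAT at 13.2, 7.07, 4.75, 8.09 and 4.68 CPM in HFD and 24.7, 235, 99.97, 604 and 126 CPM in chow mice, without overlap and with the highest value in chow replicate 4. In vWAT none of the 10 libraries held a Ucp1 read, so that no interaction is given. The HFD effect in scWAT was −4.99 (SE 0.96, adjusted p = 0.0174). Of 9 tested heat production genes, 4 were called lower in scWAT and 1 in vWAT, and none was called for the interaction.

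Mitochondrial transcripts were lower with HFD in both depots, and a difference between the depots in this diet effect was not detectable. The mitochondrial genome took 8.33 to 14.6% of counts in HFD and 15.5 to 21.5% in chow scWAT, and 6.14 to 9.64% in HFD and 12.9 to 18.9% in chow vWAT. The diet groups did not overlap in either depot. The within-animal depot difference in the log2 share differed between HFD and chow mice by 0.08 (exact two-sided permutation test over animals, p = 0.690, n = 5 and 5, smallest possible p 0.00794), and by −0.09 over the 13 protein genes alone (p = 0.310). Of the 13 protein genes 11 were called lower in each depot and none for the interaction (median −0.08). The cytochrome oxidase gene mt-Co3 averaged 16498 ± 3050.5 CPM in HFD and 31130.4 ± 3735 CPM in chow scWAT, and 9896 ± 691 CPM in HFD and 17674 ± 1602 CPM in chow vWAT, with an interaction of −0.08 (SE 0.21, adjusted p = 0.933).

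The trained mice give the same comparison in 10 other animals. There 40 of 6842 genes were called (0.585%), and without the 3 chow mice whose scWAT libraries hold lymph node reads in that group too, 5. Of the 89 genes, 80 were tested in trained mice and 13 called, which is 14.6% of the 89 and 32.5% of the 40. The direction was the same for 78 of the 80 (97.5%), against 4064 of 6636 genes tested in both (61.2%), and all 19 negative ones that were tested kept theirs. The median size of the interaction was 0.81 in trained and 1.49 in sedentary mice, and the sedentary value is that of genes picked for being large there. The 3-way test of whether the interaction differed between trained and sedentary mice called no gene of 7931 (edgeR, 0%), while DESeq2 called 1 and limma voom 0; 341 genes had an unadjusted p under 0.05 in edgeR.

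Among single genes, Ces1f had an interaction of 1.78 in trained (adjusted p = 0.00463) and 1.75 in sedentary mice. Cfd had 1.31 in trained (adjusted p = 0.0205) and 1.72 in sedentary mice, and Gstt1 1.17 (adjusted p = 0.0216) and 1.46. Efemp1, at 1.56 in trained mice, did not pass there (adjusted p = 0.0700), nor did Retn at 0.62 (adjusted p = 0.262). Thbs1 was at −0.05 in trained and 1.75 in sedentary mice, Lctl at −0.45 in trained and −2.22 in sedentary mice, and Cavin3 at 0.49 in trained and 1.83 in sedentary mice. These 3 are among 20 of the 89 genes with an unadjusted p under 0.05 in the 3-way test, and none passed the correction over all genes.

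**Figure D5:**
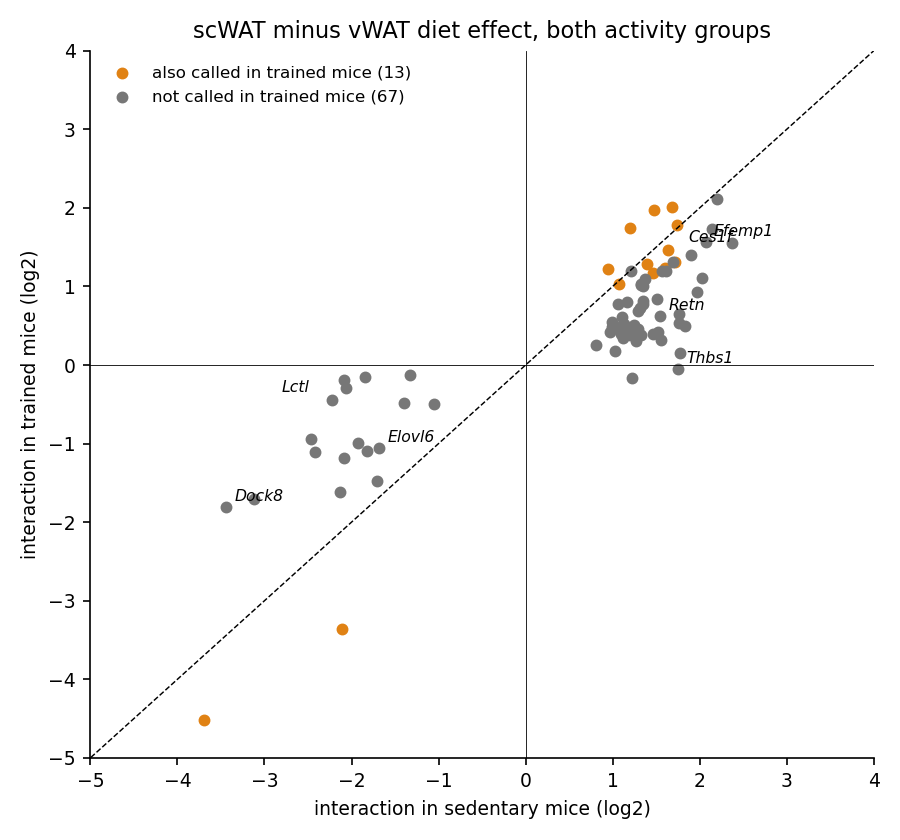
Interaction in trained mice (y axis) against that in sedentary mice (x axis), as log2 values, for the 80 genes called in sedentary and tested in trained mice; the 13 in orange were called in both. All but 2 points keep their sign, and most lie between the horizontal axis and the dashed line of equal values.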

How the data were processed

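Libraries were made from 10 ng of total RNA by 3′ digital gene expression with template switching, pooled in groups of 12 wells and sequenced single-end, per the labels' protocols. The authors deposited 1 table with estimated counts per gene, rounded to whole numbers, and log2 values of CPM plus 1 made from the unrounded counts; Salmon 0.14.2 and mm10 are named in the submitters' processing notes. The sources used here do not give the strand or the use of molecular identifiers, so genes that overlap and near-identical copies may share reads. The 20 libraries are those of 10 sedentary animals, of 60 in the table, and no 2 libraries were identical. The tests used the estimated counts. Total counts of 505336 to 720220 set the precision, and a change in a gene with few reads could not be detected at this depth.

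Differences were tested with edgeR 4.0.16 (R 4.3.3) by robust quasi-likelihood fits with TMM scaling and its filter on low counts over the 4 groups, which kept 7131 of 54352 genes. The interaction fit holds a term for each animal (8 residual degrees of freedom), since the animal code in the titles ties scWAT and vWAT of 1 mouse. Deviations from the group means correlated between depots of the same animal at −0.06 to 0.20. Most of these correlations were below 0. The highest was that of chow replicate 3, and the others reached at most 0.05. They show little pairing by animal, and the animal term rests on the codes. The HFD effect within each depot and the depot difference on each diet come from fits on the same 20 libraries. A standard error is the log2 fold change divided by the square root of its F statistic. Levels are CPM on total counts. Nothing says that samples of a group are independent beyond the animal codes, so p values measure the spread between these animals.

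Genes were named by rule: the 15 positive and 15 negative called genes with the lowest adjusted p whose mean log2 CPM was 4 or more, up to 3 called members per list, up to 2 uncalled members of pathway lists without a call, and a set of watched genes. Of the members so named, those described are the ones the comparisons turn on; Selenbp1, Gk and Sycp3 lie outside the rule and were chosen after their values were seen. The members and the 50 lists were chosen with earlier results of these data known. Alternatives were limma voom (limma 3.58.1), DESeq2 1.42.0, other scalings, no filter, no animal term, library code blocks and animals left out; leaving out the animals with lymph node reads, using lymphoid or muscle reads as a covariate, and keeping the 4 animals of 1 pair of code blocks were chosen after seeing the data. The steps were tested on simulated data. Promoters are RefSeq windows on GRCm38.p6, found for 69 of the 89 called genes. Gene coordinates are from GENCODE vM21. Figures were drawn with matplotlib 3.10.9.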

Additional observations from a re-analysis of the deposited data

Results flagged for a closer look

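The number of genes whose diet effect differed between scWAT and vWAT in a test of the difference itself, 89, is the comparison of the text above.

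In 102 groups of 5 animals, the within-animal difference between scWAT and vWAT of a named gene was examined for a sample far from the others, and 3 had one. Chance gives about 1 in 20 such groups. The distance is the gap to the nearest other animal as a share of the whole range, and the limit for 5 samples is 0.71. For Lctl the share was 0.769 in chow replicate 3, which stood at 1.19 on the log2 scale against 0.67 to 0.79 in the others. For Dock8 it was 0.722 in chow replicate 4, at 4.91 against 1.05 to 2.12. For Acaca it was 0.778 in HFD replicate 2, at −0.21 against 0.47 to 0.67.

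Reads of tissues other than fat reached 675 of the B cell list and 1163 of the lymph node stroma list in 1 scWAT library each of chow mice, 730 of the heart list in 1 vWAT library of chow mice, and 239 of the intestine list in 1 vWAT library of HFD mice. The liver list, which includes Cyp2e1, reached 7311 reads in 1 vWAT library of HFD mice. The part of the heart, intestine and liver reads in the differences was not tested.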

How the results depend on the processing

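The 89 interaction calls in sedentary mice became 382 without the filter on low counts, 25 with library code blocks, 318 in the 4 animals whose libraries lie in 1 pair of code blocks, 20 with lymphoid reads as a covariate, 11 without the animals with lymph node reads, and 33 to 214 with 1 animal left out. The 4 animals are HFD replicates 3 and 4 and chow replicates 4 and 5. Both of these chow mice have lymph node reads in scWAT, and 53 of the 318 genes were among the 89. Without the replicate block, here the animal, 21 were called. The replicate numbers do not pair samples (correlations of −0.15 to 0.21 between diets), and with them as a replicate block within 1 depot, 296 genes were called in scWAT and 454 in vWAT, against 314 and 482 for that depot alone without it. The 559 calls in scWAT became 892 without the filter, 181 without the animals with lymph node reads and 280 to 742 with 1 animal left out. The 261 in vWAT became 401 on total counts, 491 without the filter, 9 with code blocks, 170 without the animals with lymph node reads and 132 to 315 with 1 left out. The 40 in trained mice became 216 without the filter, 61 with limma voom, 0 with code blocks (edgeR, 405 at an unadjusted p under 0.05), 22 without the replicate block, 5 without the animals with lymph node reads and 5 to 165 with 1 left out. The 3-way test gave 108 without the filter and 1 with DESeq2. The mitochondrial share gave −0.094 over 13 protein genes, −1.11 as a difference of percents, and −0.022 to 0.23 with 1 animal left out. Of the 41 named called genes none changed sign; over all alternatives 679 values kept the call and 248 lost it, and 23 genes kept it with any 1 animal left out. Uncalled named genes changed sign in 16 values: Ccl2 −0.017 with code blocks and −0.64, −0.34 and −0.022 with 1 animal left out (range −0.64 to 0.39); Col1a1 −0.10 without the replicate block, −0.22, −0.11, −0.13, −0.29 and −0.049 with 1 left out (range −0.29 to 0.43), −1.42 without the animals with lymph node reads, −0.72 and −0.12 with lymphoid and muscle covariates; Sfrp5 −0.21 without the animals with lymph node reads; and mt-Co3 0.22 with code blocks and 0.24 in 1 pair of blocks. Where no cause is given, the cause was not tested.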

Other observations

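Several lists held genes called for the HFD effect and none called for the interaction. Of all genes tested only 1.25% were called for the interaction, so that no call in lists this short says little. For the HFD effect, 3.39% of all genes tested were called lower and 4.45% higher in scWAT. In vWAT these shares were 1.84% and 1.82%. Of 37 tested nuclear genes of respiratory complex I, 12 were called lower with HFD in scWAT and 12 in vWAT. Of 37 for complexes II to V, 16 were called lower in scWAT and 7 in vWAT, and of 15 for the tricarboxylic acid cycle 8 in scWAT and 5 in vWAT. Of 17 genes of fatty acid oxidation 8 were called lower in scWAT and 1 in vWAT, with a median interaction of −0.37 and 6 above 0. Of 13 acute phase and complement genes, 7 were called higher in scWAT, and 5 higher and 1 lower in vWAT.

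A list for macrophages that take up lipid had 5 of 11 tested genes called higher with HFD in vWAT and none in scWAT. Of its 11 interactions 1 lay above 0 (median −0.34) and none was called. Its summed reads were 4379 to 10319 in HFD and 4012 to 5605 in chow vWAT, and 3033 to 5723 in HFD and 2540 to 4885 in chow scWAT. In each library this sum was above that of the macrophage list, which had 624 to 872 reads in chow vWAT and 326 to 965 in chow scWAT. Which cells supplied these reads was not tested. The 62 cytosolic ribosomal protein genes had 3 interactions above 0 (median −0.41), and none was called; their median was 0.36 without the animals with lymph node reads. Mt2, a metallothionein that binds zinc, was not called in the fit of all 10 animals and was at 1.61 without the animals with lymph node reads (edgeR, adjusted p = 0.0163).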
